A study of Mus musculus with 18 samples.

Results

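The liver transcripts of 10 genes of the insulin pathway were followed in mice with and without hepatic SAPS3, on a control diet (CD) and on a high fat diet (HFD). The genes encode the insulin receptor (Insr), its substrates (Irs1, Irs2), the regulatory subunit of phosphoinositide 3-kinase (Pik3r1), the Akt kinases (Akt1, Akt2), the transcription factors that Akt restrains (Foxo1, Foxo3) and a pair of secreted binding proteins for insulin-like growth factors (Igfbp1, Igfbp2). They were taken by symbol from the tables, where all 10 were found among 25266 symbols. All 10 also passed the filter on low values, which kept 11090 genes.

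The libraries came from the livers of 18 mice in 4 groups, FF CD (4 mice), LKO CD (4), FF HFD (5) and LKO HFD (5). FF stands for ppp6r3 fl/fl, that is, floxed alleles of the gene for SAPS3, a regulatory subunit of protein phosphatase 6. LKO mice carry the same alleles and a Cre recombinase under the albumin promoter, which acts in hepatocytes, so that the deletion and the presence of Cre cannot be told apart. The mice were males of C57BL/6 background, received the diets from 8 weeks of age for 16 weeks, and had free access to food that held 10 kcal% fat (CD) or 32.5 kcal% fat (HFD). Ppp6r3 read 8.38 to 11 RPKM in FF CD mice, 3.88 to 4.08 in LKO CD mice, 7.55 to 8.82 in FF HFD mice and 4.22 to 4.87 in LKO HFD mice, so no library went against its genotype label. RPKM is the number of reads of a gene per kilobase of its length and per 1 M reads of the library. The libraries held 23.4 to 37.0 M reads, with medians of 25.2 M (FF CD), 27.1 M (LKO CD), 26.2 M (FF HFD) and 24.9 M (LKO HFD), and mice of 1 group correlated at r = 0.974 to 0.993 across genes. The 10 hepatocyte markers examined, such as Alb and Apoa1, were above 0 in every group and summed to 31400 to 49700 RPKM per mouse. How long the mice had been without food when the livers were taken is not given in the sources used here.

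Insulin lowers the output of glucose from the liver and raises the synthesis of fat. The bound receptor phosphorylates its substrates IRS1 and IRS2, these recruit phosphoinositide 3-kinase, and the lipid it makes activates Akt. Akt phosphorylates FoxO factors, which then leave the nucleus, so that genes they drive, among them Igfbp1, G6pc and Irs2, fall after a meal and rise in fasting. The signal runs largely through phosphorylation, which transcript levels do not show. IGFBP1 and IGFBP2 are made by hepatocytes and hold insulin-like growth factors in the circulation.

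Forkhead factors recognise short AT-rich sequences, and the promoter of Igfbp1 holds the classical insulin response element, a pair of such sequences facing each other. Promoter windows of 250 bases before the annotated start, from RefSeq on GRCm38.p6, the assembly also called mm10, are therefore shown for the genes of both secreted binding proteins and for Irs2, a FoxO target among the receptor substrates. Capitals mark matches on either strand to CAAAACA, to the variant CAAAATA or to the forkhead consensus GTAAACA, so that TGTTTTG stands for the first of these on the opposite strand, as TATTTTG does for the next. The 3 windows are written 5′ to 3′ on the strand of the gene and lie at chr11:7197537-7197786 (+), chr1:72824230-72824479 (+) and chr8:11008930-11009179 (-).
Igfbp1: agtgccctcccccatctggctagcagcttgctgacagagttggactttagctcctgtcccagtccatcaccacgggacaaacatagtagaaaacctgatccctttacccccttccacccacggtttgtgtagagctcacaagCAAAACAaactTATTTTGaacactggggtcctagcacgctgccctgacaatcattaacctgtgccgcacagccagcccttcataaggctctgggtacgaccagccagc
Igfbp2: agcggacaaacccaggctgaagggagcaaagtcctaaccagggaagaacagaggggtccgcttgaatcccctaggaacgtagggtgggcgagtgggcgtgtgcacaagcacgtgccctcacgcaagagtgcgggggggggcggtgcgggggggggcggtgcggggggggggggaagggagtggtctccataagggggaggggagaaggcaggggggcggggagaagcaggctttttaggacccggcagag
Irs2: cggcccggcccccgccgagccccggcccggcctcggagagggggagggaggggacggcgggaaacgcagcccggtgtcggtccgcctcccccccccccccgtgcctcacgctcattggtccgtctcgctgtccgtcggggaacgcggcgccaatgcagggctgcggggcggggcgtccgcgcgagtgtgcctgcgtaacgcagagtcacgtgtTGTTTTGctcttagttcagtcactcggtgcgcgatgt

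The window of Igfbp1 held CAAAACA at positions -108 to -102 and CAAAATA, on the opposite strand, at positions -97 to -91, counted back from the start. Each of these letters is common, with CAAAACA in 5.56%, CAAAATA in 3.95% and GTAAACA in 3.16% of 32817 mouse promoter windows of this length. Both CAAAACA and the variant CAAAATA were in 0.381% of the windows. The full run CAAAACAAACTTATTTTG was in 1 of the 32817, which is that of Igfbp1. As the run was copied from that window, its match there was fixed in advance. This count therefore does not measure how rare such an element is. Neither of the windows of Igfbp2 held a match. Irs2 held 1 at positions -37 to -31 and Irs1 held CAAAACA at positions -111 to -105 and -32 to -26, all on the opposite strand. Pik3r1, before its downstream start, and Akt1 held 1 each. Of the 9 genes with an entry, 5 had a match in 15 windows. The share of all windows with any of the 3 sequences was not counted, and some genes have several windows. Whether 5 of 9 is many or few is therefore not known. A match is a run of letters and not a bound site.

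Among the 10 genes, the transcripts that moved past the thresholds were those of the secreted binding proteins. In FF mice HFD raised Igfbp1 by 2.11-fold and lowered Igfbp2 by 3.02-fold, while in LKO mice the same diet moved neither past the thresholds. Igfbp2 nevertheless had the same sign in LKO mice (log2 difference -0.68). Whether the diet difference is unlike in LKO and FF mice passed for neither gene (adjusted p = 0.0707 for Igfbp1 and 0.301 for Igfbp2 by limma). A response to diet that depends on genotype is thus not established for either. Under HFD, Igfbp1 was 2.03-fold lower in LKO than in FF mice, a call that was lost in 15 of 18 fits that left out a mouse. Receptor, substrates, kinases and FoxO factors passed in no comparison. These are levels in whole liver, in which fewer cells of a type and less RNA per cell cannot be told apart. A gene was called where its fold change exceeded 1.5 on the log2(RPKM + 1) scale with an adjusted p under 0.05 in limma, adjusted by the Benjamini-Hochberg method over all 11090 genes.

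By comparison, 2 of the 10 genes were called between FF HFD and FF CD mice, against 6.6% of all genes tested. Igfbp1 was called higher, as were 5.11% of all genes, and Igfbp2 lower, as were 1.49%. Between LKO HFD and LKO CD mice 0 were called by limma, against 1.27% of all genes, and 2 had an unadjusted p under 0.05, against 22.3%. On CD the genotypes differed in 0 of the 10 by limma, where 0.225% of all genes were called, and 0 had an unadjusted p under 0.05, against 7.67%. On HFD 1 of the 10 differed between LKO and FF mice, against 2.07% of all genes (1.17% lower in LKO mice), and 6 had an unadjusted p under 0.05, against 19.3%. The interaction of diet and genotype, which tests whether the diet difference itself is unlike in LKO and FF mice, was called for 0 of the 10 by limma, against 2.44% of all genes, and 3 had an unadjusted p under 0.05, against 16.5%. With 10 genes these shares are coarse. The diet comparison in FF mice and the genotype comparison under HFD share the 5 FF HFD mice.

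**Figure D1:**
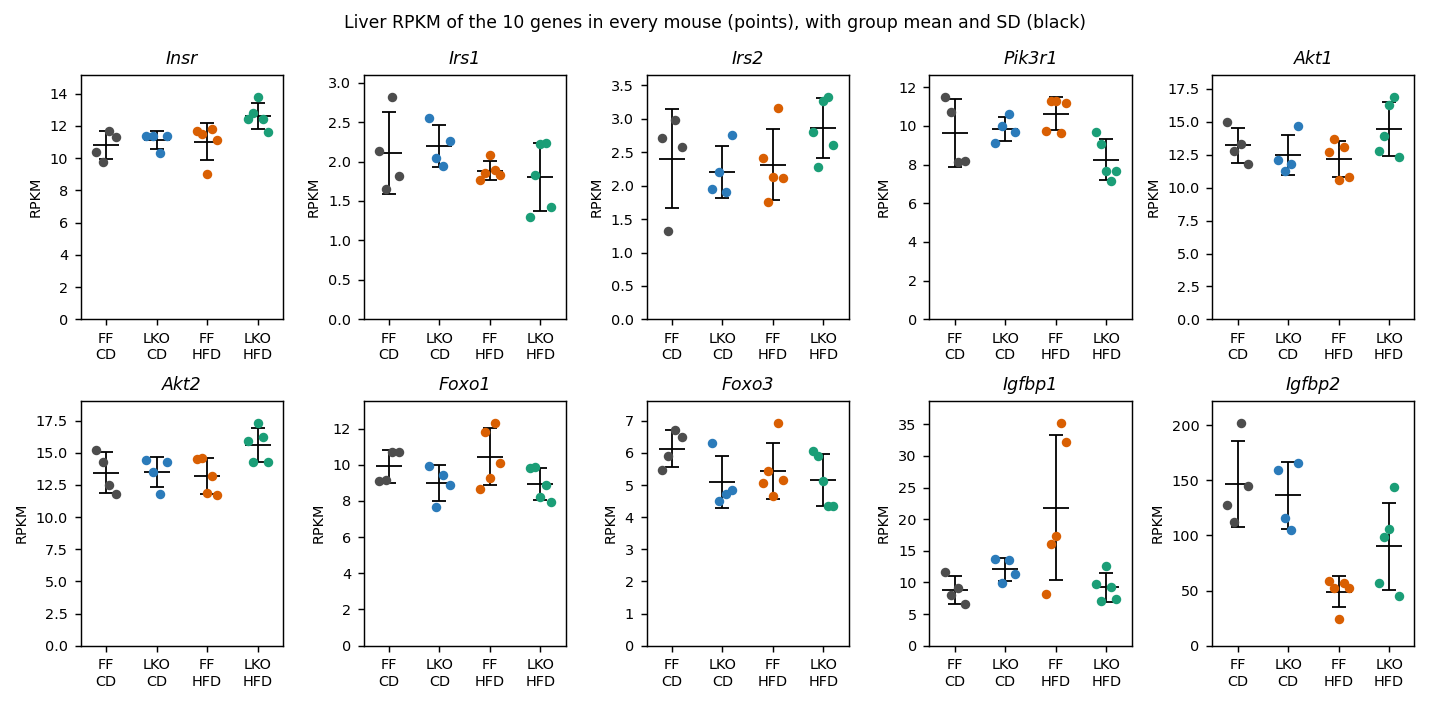
RPKM (vertical axes, from 0) of the 10 genes in each of the 18 mice, by group (horizontal axes), with 1 point per mouse, a black bar at the group mean and whiskers of 1 SD. Igfbp2 in FF HFD mice (24.3 to 58.5) lies under every CD mouse (105 to 202), and Igfbp1 in FF HFD mice is spread from 8.19 to 35.2.

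Igfbp1 (chr11:7197782-7202546, plus strand, GRCm38), which insulin represses and fasting induces, read 11.7, 7.96, 9.08 and 6.54 RPKM in the FF CD mice. In FF HFD mice it read 8.19, 16.1, 17.3, 35.2 and 32.2 RPKM. LKO CD mice had 13.7, 9.85, 13.5 and 11.3 RPKM, and LKO HFD mice had 9.75, 6.99, 12.6, 9.22 and 7.45. In FF mice on HFD, 4 of 5 were above every other mouse of the study, and mouse 1, at 8.19, stood within the range of FF CD mice, so the groups overlap. Means were 8.81 ± 2.18 (SD, n = 4) in FF CD, 12.1 ± 1.86 (n = 4) in LKO CD, 21.8 ± 11.5 (n = 5) in FF HFD and 9.2 ± 2.23 (n = 5) in LKO HFD mice. The coefficient of variation in FF HFD mice was 52.7%, against 15.3 to 24.7% in the other groups. The lowest and the highest library held 252 and 1487 reads of Igfbp1, with a median of 464, so that counting error is small beside the spread between mice.

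The diet difference of Igfbp1 in FF mice was 1.08 (log2, SE 0.296, adjusted p = 0.0151 by limma), and the exact permutation test over mice gave p = 0.0476 (two-sided). The call was kept without any 1 of the 18 mice, and was lost when only these groups entered the fit (adjusted p = 0.0547). In LKO mice the diet difference was -0.38 (95% interval -0.998 to 0.244) and did not pass. On CD, LKO mice differed from FF mice by 0.43 (interval -0.222 to 1.09), which did not pass either. Under HFD the difference of LKO from FF mice was -1.02 (SE 0.279, adjusted p = 0.046 by limma, exact permutation p = 0.0317). It was lost in 5 of 10 alternative settings (adjusted p = 0.0563 to 0.126), and kept in only 3 of 18 fits that left out a mouse, those without FF CD mouse 4, FF HFD mouse 1 or LKO HFD mouse 1. Without any other mouse its adjusted p was 0.0506 to 0.118. The interaction was -1.45 (SE 0.418, adjusted p = 0.0707 by limma) and passed only with every mouse rescaled to the same sum (adjusted p = 0.0459) or without FF HFD mouse 1 (adjusted p = 0.00544). The signs of the diet difference in FF mice, of the genotype difference under HFD and of the interaction were the same in every alternative.

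Igfbp2 (chr1:72824503-72852474, plus strand) was the most abundant of the 10 transcripts, at a mean of 102 RPKM over the 18 mice. It read 128, 112, 202 and 145 RPKM in FF CD mice and 58.5, 52.3, 24.3, 57.2 and 52.1 in FF HFD mice. LKO CD mice had 159, 116, 105 and 166 RPKM, and LKO HFD mice had 57.2, 98.4, 106, 144 and 45.3. All FF HFD mice were below all CD mice of both genotypes, while the LKO HFD mice were spread over both ranges, with mice 1 and 5 within the range of FF HFD mice, mice 3 and 4 within that of CD mice and mouse 2 between them. Group means were 147 ± 39.3 (SD, n = 4), 136 ± 30.4 (n = 4), 48.9 ± 14 (n = 5) and 90.2 ± 39.8 (n = 5) RPKM for FF CD, LKO CD, FF HFD and LKO HFD.

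In FF mice HFD lowered Igfbp2 by 1.60 on the log2 scale (-1.60, SE 0.305, adjusted p = 0.00146 by limma, exact permutation p = 0.00794, the smallest that 4 against 5 mice allow). The 2 groups did not overlap, as was the case for 18.3% of all genes tested. The call was kept in all 9 alternative settings and without any 1 of the 18 mice. In LKO mice the difference had the same sign at -0.68 (SE 0.305, adjusted p = 0.194 by limma, exact permutation p = 0.103) and did not pass. LKO HFD mice were above FF HFD mice by 0.81 (SE 0.288, adjusted p = 0.124 by limma, exact permutation p = 0.103), again short of the threshold. That comparison turned on LKO HFD mouse 5, without which the difference was 1.03 with an adjusted p of 0.0467. The interaction of 0.91 (SE 0.432, adjusted p = 0.301 by limma) did not pass, so a smaller fall in LKO mice is not established. On CD the genotypes differed by -0.10 (interval -0.774 to 0.578).

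**Figure D2:**
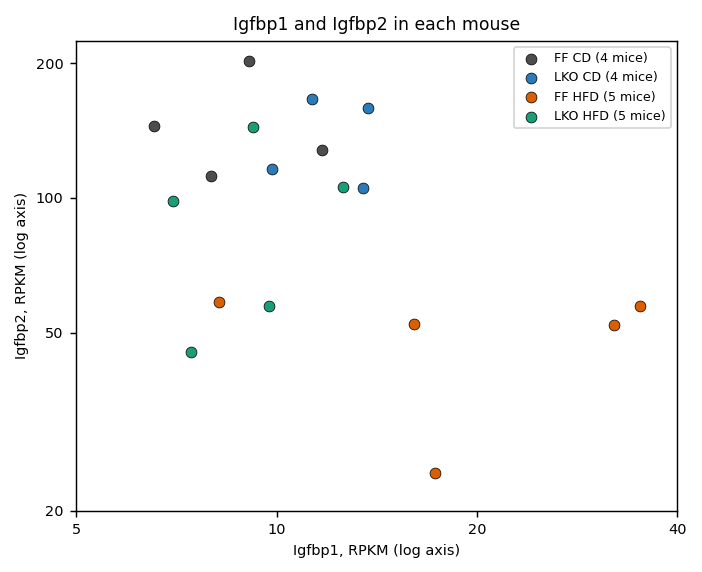
Igfbp1 (horizontal, RPKM, log axis) against Igfbp2 (vertical, RPKM, log axis), with 1 point per mouse, coloured by group. Of the FF HFD mice, 4 lie apart at the lower right (Igfbp1 of 16.1 to 35.2, Igfbp2 of 24.3 to 57.2), and FF HFD mouse 1 lies with the LKO HFD mice (Igfbp1 of 6.99 to 12.6).

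Read within each mouse, the ratio of Igfbp2 to Igfbp1 was 11 to 22.3 in FF CD mice and 1.4 to 7.14 in FF HFD mice, which do not overlap. The ratio was 7.76 to 14.6 in LKO CD and 5.86 to 15.6 in LKO HFD mice. Its mean was 17.4 ± 5.75, 11.4 ± 2.83, 3.01 ± 2.43 and 10.0 ± 4.56 (SD) in FF CD, LKO CD, FF HFD and LKO HFD mice. LKO HFD mice thus overlapped LKO CD mice over most of their range and FF HFD mice at their lower end. The ratio was chosen after its values were seen and carries no test.

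The receptor and its substrates passed in no comparison. Insr (chr8:3122061-3279617, minus strand), the receptor itself, read 10.4, 9.76, 11.7 and 11.3 RPKM in FF CD mice, 11.4, 11.4, 10.3 and 11.4 in LKO CD mice, 11.7, 11.5, 9.0, 11.8 and 11.1 in FF HFD mice and 12.4, 12.8, 13.8, 12.4 and 11.6 in LKO HFD mice. Every LKO HFD mouse was above every LKO CD mouse, a separation that 9.04% of all genes tested showed, and the exact permutation p was 0.0159, yet the limma difference did not pass (0.16, adjusted p = 0.251). Against FF HFD mice the LKO HFD mice were higher by 0.18 (SE 0.0774, adjusted p = 0.211 by limma, exact permutation p = 0.0238), and 1 LKO HFD mouse lay within the FF range.

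Irs1 (chr1:82233101-82291416, minus strand) and Irs2 (chr8:10984681-11008458, minus strand), the adaptors that the receptor phosphorylates, were the least abundant of the 10, at means of 1.98 and 2.46 RPKM. Irs1 read 2.13, 1.65, 2.82 and 1.82 RPKM in FF CD mice, 2.55, 2.04, 1.94 and 2.26 in LKO CD mice, 1.77, 1.85, 2.08, 1.89 and 1.83 in FF HFD mice and 1.3, 1.83, 2.22, 2.23 and 1.43 in LKO HFD mice. Irs2 read 2.71, 1.32, 2.99 and 2.58 RPKM in FF CD mice, 1.95, 2.21, 1.91 and 2.76 in LKO CD mice, 2.42, 1.76, 2.13, 3.16 and 2.11 in FF HFD mice and 2.81, 2.28, 3.27, 3.33 and 2.61 in LKO HFD mice. All 4 groups overlap for both genes, and neither had an unadjusted p under 0.05 in any comparison. Irs2, a FoxO target like Igfbp1 with a match in its promoter window, differed by -0.021 between diets in FF mice (interval -0.327 to 0.286). The ratio of Irs2 to Irs1 ranged from 0.763 to 1.67 over the other 3 groups and from 1.24 to 2.16 in LKO HFD mice, a description chosen after the values were seen.

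Pik3r1 (chr13:101680563-101768217, minus strand), which encodes the p85α family of regulatory subunits, read 11.5, 10.7, 8.11 and 8.16 RPKM in FF CD mice, 9.13, 10.0, 10.6 and 9.69 in LKO CD mice, 9.74, 11.3, 11.3, 9.64 and 11.2 in FF HFD mice and 9.67, 9.07, 7.67, 7.17 and 7.67 in LKO HFD mice. The 3 lowest values of the study were in LKO HFD mice, which overlapped FF HFD mice by 1 mouse. Their difference from FF HFD mice was -0.34 (SE 0.0996, adjusted p = 0.0644 by limma, exact permutation p = 0.0159), and that from LKO CD mice was -0.24 (SE 0.106, adjusted p = 0.191 by limma, exact permutation p = 0.0476). The interaction was -0.38 (SE 0.149, adjusted p = 0.199 by limma). None passed, and the fold of 1.26 under HFD lies below the threshold of 1.5 whatever its p.

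Akt1 (chr12:112653821-112674884, minus strand) and Akt2 (chr7:27591552-27640826, plus strand), the kinases that pass the signal on, were close in level, at means of 13.1 and 14 RPKM. Akt1 read 15.0, 12.8, 13.3 and 11.8 RPKM in FF CD mice, 12.1, 11.3, 11.8 and 14.7 in LKO CD mice, 12.7, 13.7, 10.6, 13.1 and 10.8 in FF HFD mice and 12.8, 13.9, 16.3, 16.9 and 12.3 in LKO HFD mice. Akt2, the form through which insulin acts on hepatic metabolism, read 15.2, 14.3, 12.5 and 11.8 RPKM in FF CD mice, 14.4, 13.5, 11.8 and 14.3 in LKO CD mice, 14.5, 14.6, 11.9, 13.2 and 11.7 in FF HFD mice and 15.9, 14.3, 17.3, 16.2 and 14.3 in LKO HFD mice. Both were highest on average in LKO HFD mice, with overlap between neighbouring groups. Relative to FF HFD mice, LKO HFD mice differed by 0.23 in Akt1 (SE 0.103, adjusted p = 0.234 by limma) and by 0.23 in Akt2 (SE 0.0889, adjusted p = 0.161 by limma), which did not pass.

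Foxo1 (chr3:52268336-52353221, plus strand), the main FoxO factor of the liver, read 9.1, 9.13, 10.7 and 10.7 RPKM in FF CD mice, 9.94, 7.64, 9.45 and 8.88 in LKO CD mice, 8.66, 11.8, 9.28, 12.3 and 10.1 in FF HFD mice and 9.8, 9.85, 8.2, 8.9 and 7.96 in LKO HFD mice. Foxo3 (chr10:42181841-42276755, minus strand) read 5.46, 5.89, 6.7 and 6.49 RPKM in FF CD mice, 6.3, 4.49, 4.73 and 4.86 in LKO CD mice, 5.07, 5.45, 4.65, 6.93 and 5.15 in FF HFD mice and 6.07, 5.9, 5.14, 4.35 and 4.34 in LKO HFD mice. The groups overlap throughout, and no difference of either gene had an unadjusted p under 0.05. For Foxo1 the difference of LKO from FF mice under HFD was -0.19 (interval -0.401 to 0.013), and for Foxo3 on CD it was -0.23 (interval -0.486 to 0.02). Among FF HFD mice the highest Foxo1 was in mice 2 and 4 and the highest Igfbp1 in mice 4 and 5. Phosphorylation and location of the FoxO proteins, through which insulin controls them, were not measured in these libraries.

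Differences of the genes that missed an unadjusted p of 0.05 are given as ranges. They ran from -0.15 (Foxo3) to 0.14 (Pik3r1) for 8 genes between diets in FF mice and from -0.38 (Igfbp1) to 0.27 (Irs2) for 8 genes between diets in LKO mice. On CD all 10 genes lay between -0.23 (Foxo3) and 0.43 (Igfbp1), with a lowest adjusted p of 0.704 by limma. Under HFD 4 genes lay between -0.19 (Foxo1) and 0.23 (Irs2), and for the interaction 7 lay between -0.11 (Irs1) and 0.30 (Akt1). Ordered by group mean, neighbouring groups overlapped for every gene except LKO CD and LKO HFD in Insr.

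**Figure D3:**
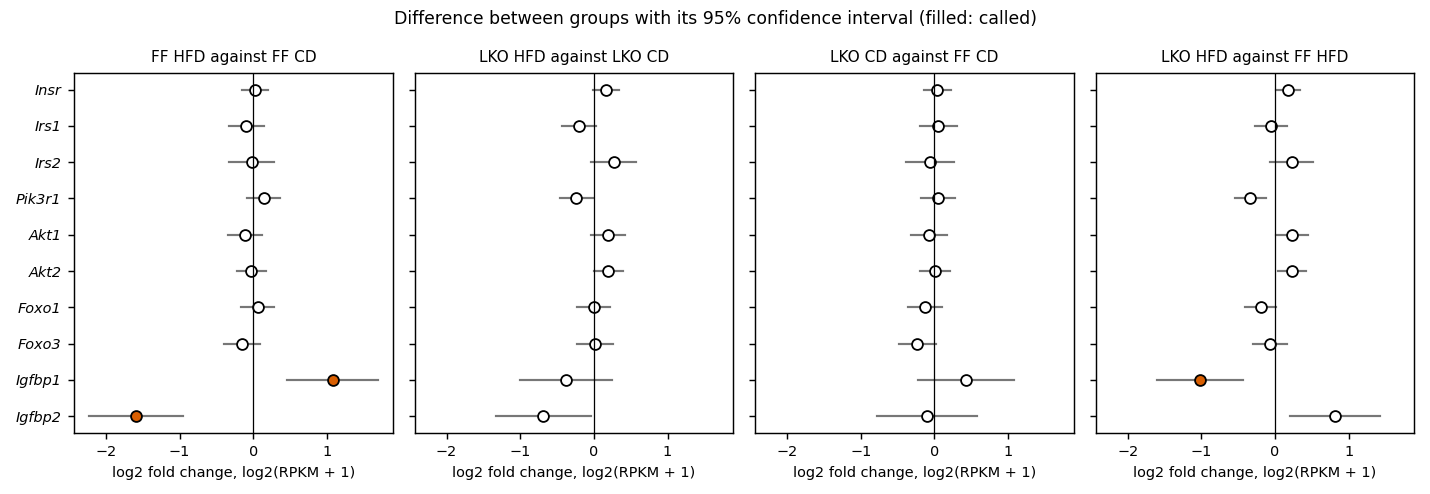
Log2 fold change on the log2(RPKM + 1) scale (horizontal) of the 10 genes (vertical) in 4 comparisons, with the 95% confidence interval of the limma fit as a line and called genes filled. The filled points are Igfbp1 (1.08) and Igfbp2 (-1.60) between diets in FF mice and Igfbp1 (-1.02) between genotypes under HFD, and on CD every interval includes 0.

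The wider pathway was examined by role from lists of named genes. These lists hold Insr, Irs1, Irs2, Pik3r1, Akt1, Akt2, Foxo1 and Foxo3 again, so their counts partly repeat those above. Among 8 tested genes for the receptor, substrates and adaptors, 9 for the brakes on them (such as Ptpn1, Grb14 and Socs3), 13 for phosphoinositide 3-kinase subunits and lipid phosphatases and 12 for FoxO factors and partners, 0 were called by limma in any of the 5 comparisons. At an unadjusted p under 0.05 these 4 lists held 0 to 7 genes a comparison. The most, 7 of 13, were among the kinase subunits and lipid phosphatases between diets in LKO mice, against 22.3% of all genes. Of 12 genes for Akt kinases and regulators, 1 rose with HFD in FF mice. This was Mtor, the kinase of the TOR complexes, from 3.71 ± 0.334 to 6.51 ± 0.973 RPKM (0.67, SE 0.147, adjusted p = 0.00397 by limma), and it fell short of the fold of 1.5 with median centring (0.57). Of 16 Akt substrates and genes of the TORC1 arm, 1 rose with HFD in LKO mice, Eif4ebp2, a repressor of translation that TORC1 switches off (0.85, SE 0.225, adjusted p = 0.0418 by limma). The Eif4ebp2 call was lost in 5 of 10 alternative settings (adjusted p up to 0.0901) and without any 1 of 8 mice (FF CD 3, LKO CD 1 to 4, FF HFD 2, LKO HFD 3 and LKO HFD 4, adjusted p up to 0.122). Medians of these 6 lists were -0.064 to 0.16 between diets in FF mice, where the median of all genes was 0.071. In LKO mice they were 0.020 to 0.13, beside 0.067 for all genes.

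FoxO-induced genes, with Igfbp1, Irs2 and Insr again among them, moved in both directions. Of 22 tested, 5 rose and 1 fell with HFD in FF mice, 1 rose and 1 fell in LKO mice, and the medians were 0.092 and 0.081. On CD 0 differed between genotypes by limma, with 4 at an unadjusted p under 0.05, against 7.67% of all genes. Under HFD 3 were lower in LKO than in FF mice and 0 higher, with a median of -0.17 beside 0.030 for all genes. The interaction was called for 3, all negative. Besides Igfbp1, the genes that rose most in FF mice were Cdkn1a, an inhibitor of the cell cycle (2.01, SE 0.226, adjusted p = 1.29e-05 by limma), and Pdk4, which spares glucose by braking pyruvate dehydrogenase (1.73, SE 0.237, adjusted p = 1e-04 by limma). Bcl6, a transcriptional repressor, fell (-1.02, SE 0.32, adjusted p = 0.0313 by limma), but its call was lost without FF CD mouse 2 or 3 or FF HFD mouse 2, 4 or 5 (adjusted p up to 0.123), and without the filter on low values or without moderation of the variances (adjusted p up to 0.0642).

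G6pc, the last enzyme of glucose output and the best known FoxO target beside Igfbp1, took another course. It read 197 to 256 RPKM in FF CD mice, 113 to 170 in LKO CD mice, 133 to 207 in FF HFD mice and 37.1 to 63.2 in LKO HFD mice, which lay below all other mice. In LKO mice it fell by 1.48 with HFD on the log2 scale (-1.48, SE 0.162, adjusted p = 0.000374 by limma), and under HFD the difference of LKO from FF mice was -1.74 (SE 0.153, adjusted p = 3.06e-06 by limma). In FF mice, where HFD raised Igfbp1, the diet difference of G6pc was -0.49 (SE 0.162, adjusted p = 0.0383 by limma), short of the fold of 1.5. On CD its groups did not overlap either, at a difference of -0.75 that did not pass (adjusted p = 0.0824 by limma). Cdkn1a was also lower in LKO HFD mice, at 0.771 to 1.75 RPKM against 2.15 to 6.73 in FF HFD mice (-1.24, SE 0.213, adjusted p = 0.00256 by limma). The interaction was -0.99 for G6pc (SE 0.229, adjusted p = 0.0256 by limma), -1.45 for Cdkn1a (SE 0.32, adjusted p = 0.0182) and -1.39 for Pdk4 (SE 0.335, adjusted p = 0.0299). It was lost without LKO CD mouse 4 for G6pc (adjusted p = 0.0549) and without FF CD mouse 3 or LKO CD mouse 2 for Cdkn1a (adjusted p = 0.0519). For Pdk4 it was lost without FF CD mouse 3, LKO CD mouse 1, 2 or 4, FF HFD mouse 2 or 4 or LKO HFD mouse 2 or 4 (adjusted p up to 0.0828). All 3 interactions were also lost without the filter and without moderation, with adjusted p up to 0.0544 for G6pc, 0.0531 for Cdkn1a and 0.0809 for Pdk4. That of Cdkn1a was lost with voom on recovered reads too (adjusted p = 0.0812). Txnip, which limits glucose uptake, rose with HFD in LKO mice (0.69, SE 0.192, adjusted p = 0.0499 by limma), a call kept only without LKO CD mouse 2 or 4, FF HFD mouse 4 or LKO HFD mouse 5 and lost without any other (adjusted p up to 0.164) and in 5 of 9 alternative settings (adjusted p up to 0.121).

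**Figure D4:**
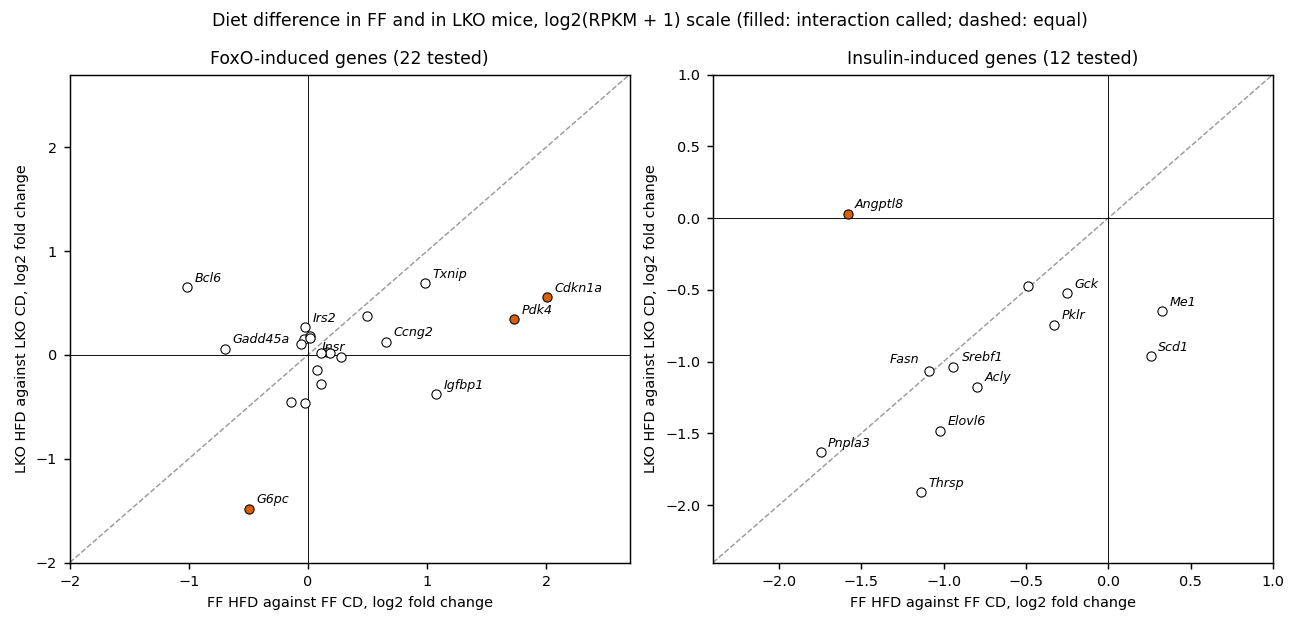
Diet difference in FF mice (horizontal) against that in LKO mice (vertical), log2 fold change on the log2(RPKM + 1) scale, for 22 FoxO-induced genes (left) and 12 insulin-induced genes (right), with 1 point per gene, no mice in common between the axes, genes with a called interaction filled and a dashed line where both are equal. Igfbp1 lies at 1.08 and -0.38, G6pc is the lowest FoxO-induced gene in LKO mice (-1.48), and most insulin-induced genes lie below 0 on both axes.

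Part of the insulin-induced genes of fat synthesis and glycolysis fell on HFD in each genotype. Of 12 tested, 6 fell and 0 rose in FF mice and 5 fell and 0 rose in LKO mice, with medians of -0.869 and -0.999 beside 0.071 and 0.067 for all genes. In FF mice the largest were Pnpla3, a lipid droplet protein (-1.75, adjusted p = 0.00642 by limma), Angptl8, a secreted regulator of lipoprotein lipase (-1.58, adjusted p = 0.000659), and Fasn, the fatty acid synthase (-1.09, adjusted p = 0.0267). In LKO mice they were Thrsp, a lipogenic factor (-1.91, adjusted p = 0.0285 by limma), Pnpla3 (-1.63, adjusted p = 0.0398) and Elovl6, a fatty acid elongase (-1.48, adjusted p = 0.0113). Under HFD 2 of the 12 were lower in LKO than in FF mice, Me1, the malic enzyme (-0.83, adjusted p = 0.0401 by limma), and Pklr, the liver pyruvate kinase (-0.62, adjusted p = 0.0398), and the list median was -0.50. Angptl8 was the 1 with a called interaction (1.61, adjusted p = 0.0288 by limma), since HFD lowered it from 32.7 ± 12.5 to 10.1 ± 3.45 RPKM in FF mice, while LKO mice had 17.9 ± 4.67 and 18.6 ± 6.14. On CD 0 of the 12 differed by limma, with 2 at an unadjusted p under 0.05, against 7.67% of all genes.

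Several of these insulin-induced calls were lost when 1 mouse was left out or a setting was changed. Fasn was lost without FF CD mouse 1 or 2 or FF HFD mouse 1 (adjusted p up to 0.0932), Elovl6 without LKO CD mouse 3 (adjusted p = 0.0538) and Thrsp without LKO CD mouse 1 or 3 or LKO HFD mouse 3 (adjusted p up to 0.0961). Pnpla3 in LKO mice was lost without LKO CD mouse 1, 2 or 3 or LKO HFD mouse 2, 3, 4 or 5 (adjusted p up to 0.118), and the interaction of Angptl8 without FF CD mouse 1 or 2, LKO CD mouse 2 or 4, FF HFD mouse 5 or LKO HFD mouse 3 (adjusted p up to 0.0773). Me1 was lost without any 1 of FF HFD mice 2 to 5 or LKO HFD mice 2 to 5 (adjusted p up to 0.103), and Pklr without FF HFD mouse 1, 2, 4 or 5 or LKO HFD mouse 2, 3 or 4 (adjusted p up to 0.0958). Without the filter and without moderation, the calls of Fasn, Thrsp, Me1 and Pklr, of Pnpla3 in LKO mice and of the interaction of Angptl8 were lost too, and with only the groups compared those of Thrsp, Pklr and Pnpla3 in LKO mice. Their adjusted p in these settings was at most 0.0554 for Fasn, 0.085 for Thrsp, 0.088 for Pnpla3, 0.0767 for Angptl8, 0.0767 for Me1 and 0.0712 for Pklr. Pnpla3 and Angptl8 between diets in FF mice were kept without any 1 mouse and in every setting.

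Of 10 tested genes of the IGF system, which include Igfbp1 and Igfbp2, 1 other was called. Igfbp7, a secreted protein related to the IGF-binding proteins, rose with HFD in FF mice from 27.1 ± 7.94 to 44.4 ± 10.4 RPKM (0.70, SE 0.19, adjusted p = 0.0142 by limma), a call lost without FF CD mouse 3 (adjusted p = 0.0581). Igf1, the ligand that the binding proteins hold, read 60.0 to 79.1 RPKM in FF CD mice and 45.1 to 56.2 in FF HFD mice, without overlap, at a fold below 1.5 (-0.35, adjusted p = 0.0344 by limma). It was singled out after its values were seen.

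Time without food, time of day and glucocorticoids also move Igfbp1 and FoxO targets, so lists for these were read beside them. The lists are not independent of the FoxO-induced genes. The fasting list shares Pck1, G6pc, Ppargc1a and Pdk4 with these, and the glucocorticoid list shares Cdkn1a, so calls of shared genes repeat. Of 14 tested genes of the fasting response, 6 rose and 1 fell with HFD in FF mice (median 0.50 beside 0.071 for all genes), with Acot1 (2.56, adjusted p = 5.29e-05 by limma) and Fgf21 (1.24, adjusted p = 0.01) among them. On CD 0 differed between genotypes by limma, with 6 at an unadjusted p under 0.05, against 7.67% of all genes. In LKO mice 0 rose with HFD and 2 fell (median 0.058), G6pc and Lpin1, a lipid phosphatase (-1.24, adjusted p = 0.0285 by limma, lost without LKO CD mouse 1 or 3 or LKO HFD mouse 3 or 4, adjusted p up to 0.101, and without the filter or moderation, up to 0.0671). Under HFD 1 was lower in LKO than in FF mice, G6pc. The interaction was negative for all 14 and called for 3, Acot1 (-1.87, adjusted p = 0.0364 by limma), Pdk4 and G6pc. The call of Acot1 was lost without FF CD mouse 2, 3 or 4, LKO CD mouse 2 or 4, FF HFD mouse 2 or 4 or LKO HFD mouse 2 or 5 (adjusted p up to 0.096), and without the filter or without moderation (adjusted p up to 0.0926). Of 15 clock genes 0 were called by limma in any of the 5 comparisons, with 1 to 6 at an unadjusted p under 0.05. Of 10 glucocorticoid-responsive genes 3 rose in FF mice (Cdkn1a and the metallothioneins Mt1, 2.84, and Mt2, 2.99), 3 rose in LKO mice (Mt1, 2.93, Mt2, 3.27, and Fkbp5, 0.95) and 2 were lower in LKO than in FF mice under HFD (Cdkn1a and Dusp1, a phosphatase of stress kinases, -1.50). Most of the list did not rise in LKO mice, where 6 of the 10 lay below 0 at a median of -0.315. In FF mice 6 lay above 0, at a median of 0.302. Mt1 and Mt2 in LKO mice were lost without LKO CD mouse 1 or 3 or LKO HFD mouse 3 (adjusted p up to 0.0786 by limma) and with only the groups compared (up to 0.084), Mt1 also without the filter, and Fkbp5 was kept only without FF CD mouse 1, FF HFD mouse 1 or 4 or LKO HFD mouse 1 or 2 (adjusted p otherwise up to 0.139) and lost in 6 of 10 alternative settings (adjusted p up to 0.101). The part of feeding state or stress in the change of Igfbp1 was not tested.

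Markers of other liver cells also differed between groups. Of 10 endothelial markers 6 rose with HFD in FF mice and 0 in LKO mice by limma. In LKO mice 7 had an unadjusted p under 0.05, against 22.3% of all genes. All 10 lay above 0 in both genotypes, and the interaction was called for 0. Their summed level was 23.0 to 51.4 RPKM in FF CD, 59.6 to 99.6 in FF HFD, 18 to 49.8 in LKO CD and 46.3 to 65.9 in LKO HFD mice. Of 10 Kupffer cell and macrophage markers 3 rose in FF mice and 1 in LKO mice by limma. With HFD 8 had an unadjusted p under 0.05 in each genotype, at medians of 0.581 in FF and 0.543 in LKO mice. Of all genes 22.3% had one between diets in LKO mice, and the share for FF mice is not given here. Between genotypes under HFD and for the interaction 0 of the 10 markers had one, against 19.3% and 16.5% of all genes. The 10 markers summed to 72.1 to 100 RPKM in FF CD, 85.4 to 177 in FF HFD, 67.7 to 99.4 in LKO CD and 90.4 to 162 in LKO HFD mice. Of 10 stellate cell and fibroblast markers 3, all collagens, rose in FF mice, and the same 3 were lower in LKO than in FF mice under HFD. The most abundant of the 3, Col3a1, averaged 3.59 RPKM in FF CD, 5.43 in LKO CD, 9.88 in FF HFD and 3.66 in LKO HFD mice. All 10 markers together summed to 73.5 to 103 RPKM in FF CD, 73.8 to 125 in LKO CD, 94.3 to 147 in FF HFD and 63.0 to 131 in LKO HFD mice. Most of this sum was Dcn, at group means of 55.9 to 71.1 RPKM. On CD all 10 lay higher in LKO than in FF mice, at a median of 0.257, with 0 called by limma. None of these markers was at 0 in a whole group. Of 10 hepatocyte markers 2 fell with HFD in FF mice, Apoa1 and Cps1, and 1, Apoa1, was higher in LKO than in FF mice under HFD. Between diets in FF mice 7 lay below 0 and 3 above, at a median of -0.113. Their summed level overlapped between FF CD (31400 to 39900 RPKM) and FF HFD mice (35100 to 44600). Alb alone averaged 25700 and 29900 RPKM in these groups, so the sum says little of the other markers. The part of cell composition in the changes of Igfbp1 and Igfbp2 was not tested.

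The remaining marker lists were low or overlapped. Cholangiocyte markers summed to 15.3 to 66.1 RPKM over the 18 mice, with 0 of 3 tested called by limma in any comparison. Adipocyte markers summed to 0.0955 to 2.71 RPKM, with Slc2a4 as the 1 of 2 tested that fell with HFD in both genotypes. Pancreas markers summed to 2.22 to 15.7 RPKM, with Ins2 at 0 in all mice and Cela1 as the 1 tested, which fell in FF mice. Skeletal muscle markers summed to at most 2.68 RPKM and had none tested. Of 9 tested blood cell markers 1 rose in FF mice (S100a9) and 1 in LKO mice (S100a8), and the sum was 74.7 to 610 RPKM.

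The genes whose levels followed Igfbp1 most closely over the 18 mice were Atl2 (r = 0.84), Fmo5 (r = 0.81) and Cd83 (r = 0.80), by Pearson's r of log2(RPKM + 1). Among those closest to Igfbp2 were Kat2b and Ube3a, each at r = 0.93. Mean Fmo5, a liver monooxygenase, was 114, 126, 163 and 116 RPKM in FF CD, LKO CD, FF HFD and LKO HFD mice, and mean Kat2b, an acetyltransferase, was 18.1, 17.9, 14.2 and 15.6. The points share their libraries and the 4 groups, so r describes a common order of the mice and no more.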

How the data were processed

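Liver RNA of 18 mice was extracted with Trizol and sequenced. The labels name a small RNA library protocol and then a standard RNA-seq protocol, and which was used was not settled here. Per the submitters' processing notes, the authors used HISAT2 2.0.4, Partek and the build mm10, and they deposited RPKM values for each mouse. Annotation, counting, strandedness and the treatment of reads shared by several genes are not given in the sources used here. No scaling between mice beyond library depth was applied to them.

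Depths were recovered from the steps between low RPKM values (up to 0.2), which gave whole reads within 0.02 reads for 8017 of 11090 genes (72.3%), Irs1, Foxo1, Foxo3 and Igfbp1 among the 10 genes.

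Tests ran in limma (version 3.58.1, R 4.3.3; a linear fit with moderated, trended variances) on log2(RPKM + 1) of the genes whose RPKM averaged 0.5 or more, with all 18 mice in 1 fit and a coefficient for each group. The scale with a pseudocount of 1 understates fold changes of low genes. Two-sided p-values were adjusted for 11090 genes by Benjamini-Hochberg. Calls needed a fold change above 1.5 and an adjusted p under 0.05. Each of the 10 genes was also compared by exact permutation of the mice, in 40 tests (two-sided, unadjusted), of which the smallest possible p is 0.0286 for 4 against 4 mice and 0.00794 otherwise. The labels give a separate sample for each mouse.

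The 10 genes and the lists were chosen with earlier results of these data known. By rule, the log2 change, SE and adjusted p of the 10 genes are printed where the unadjusted p was under 0.05 (other values as ranges or with intervals), up to 3 called genes are named per list and comparison, and the 3 genes most like each called gene are given, except 1 that is not reported here. As alternatives, the pseudocount was set to 0.1, the filter removed or set to 1, and the fit repeated with rescaling to the same sum, quantile normalization, median centring, only the groups compared, no moderation, the replicate number as a block, and leaving out each mouse. Calls were also counted by the adjusted p alone, with no fold threshold. That setting can lose no call, and it is not among the alternative settings counted beside single genes. A voom fit on the recovered reads was added after seeing the data. Promoters came from RefSeq (GRCm38.p6), gene positions from GENCODE M21 (GRCm38). Python 3.11.15, pandas 2.3.3, scipy 1.17.1 and matplotlib 3.10.9 were used.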

Additional observations from a re-analysis of the deposited data

Results flagged for a closer look

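In the 40 sets of values formed by 10 genes and 4 groups, a single mouse stood apart in 3, where chance flags about 1 in 20. Insr read 10.3 RPKM in LKO CD mouse 3, below the 3 others of its group at 11.4. Insr also read 9.0 RPKM in FF HFD mouse 3, below the other FF HFD mice at 11.1 to 11.8, and in the same mouse Igfbp2 read 24.3 RPKM, below 52.1 to 58.5 in the other FF HFD mice. Without FF HFD mouse 3 the fall of Igfbp2 between diets in FF mice was still called, as in every fit that left out a mouse (log2 difference -1.71 to -1.37).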

How the results depend on the processing

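The numbers of the 10 genes called between diets in LKO mice and between genotypes on CD stayed at 0 in all 29 alternatives. Between diets in FF mice 2 were called, and 1 with only the groups compared (Igfbp2) or with voom on recovered reads (Igfbp1, since Igfbp2 has no recovered reads), and it stayed at 2 when any mouse was left out. Between genotypes under HFD 1 was called, and 0 without a filter, with only the groups compared, without moderation, with the replicate block and with voom, and 0 to 1 when a mouse was left out (0 in 14 of 18 fits, Igfbp1 in 3, and Igfbp2 in place of Igfbp1 without LKO HFD mouse 5). The interaction was called for 0 genes, and for 1 (Igfbp1) with rescaling to the same sum, and 0 to 1 when a mouse was left out. The cause was not tested.

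Of 25 pairs of same-numbered mice, 10 deviated together at r above 0.1 (range -0.17 to 0.33). Mice of unlike numbers were not read beside them, so these values cannot tell whether the numbers pair the mice. The main fit left the numbers out. With the replicate block the number of the 10 genes called under HFD between genotypes went from 1 to 0 (Igfbp1, adjusted p = 0.0665 by limma), and the other 4 numbers of calls did not change. Outside the 10 genes the block also ended the calls of Fkbp5 between diets in LKO mice (0.0585), of Me1 (0.0565) and Pklr (0.0508) between genotypes under HFD and of the interaction of Pdk4 (0.0537), 5 of 37 named calls in all with Igfbp1. Of 1288 alternatives of 47 single values, 1107 stayed on their side of the thresholds, 178 lost a call, 3 gained one and 0 changed direction. The reads behind a value are known for 4 of the 10 genes (252 to 1894 a library) and unknown for the other 6.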
